A study of Homo sapiens with 267 samples.

Results

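Single K562 cells of the imatinib run were ranked by the transcript levels of 6 genes of DNA replication, and the 30 highest-scoring cells were set beside the 30 lowest-scoring cells. The score of a cell was its mean log2(CPM + 1) over PCNA, MCM3, MCM5, RRM2, CLSPN and E2F1, where CPM is reads per 1000000 reads on genes. These 60 came from 91 libraries kept of the 96 of that run, and the series holds 263 libraries with counts. Bulk samples of many cells were sequenced along with the single cells, and the labels do not say which libraries they are, so the kept libraries are called cells here without that check. Of the 5 libraries left out, 1 had more than 70% of its reads in its 500 most abundant genes and 4 had 10000 or more genes at more than 2 reads. Both sets were chosen by measured values of these same cells, so what follows is a description and no test was made. The cells of a run are not replicates of a condition, and every SD given is over cells.

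The study examined how single cells can be kept for RNA sequencing after chemical fixation. Its cells were captured in microfluidic chips, and ERCC spike-in RNA was sequenced along with their cDNA. K562 is an established human line from a chronic myeloid leukaemia and carries the BCR-ABL1 fusion kinase, which imatinib inhibits. The imatinib run held cells stained with CellTracker Green CMFDA at 1 µM for 30 min and not given imatinib (51 libraries, 48 kept), and cells stained with CellTracker Orange CMRA at 1 µM for 30 min and given imatinib at 1 µM for 1 h (45 libraries, 43 kept). Both were also stained with LIVE/DEAD Fixable Red, which enters dead cells. Stain and drug cannot be told apart in this design. Per the paper, every experiment held both fresh cells and cells fixed and stored before capture, and these were not told apart here. How far fixation and storage enter the results was not tested. A benzene run (Green without drug, and Orange with benzene at 10 mM for 3 h; 71 libraries with counts, 62 kept) and a run stained with Hoechst 33342 at 2 µM and propidium iodide for 20 min (96 libraries, 77 kept) were split by the same score for comparison. Depth in the kept cells of the imatinib run was between 722407 and 1690631 reads on genes (median 1225731), and between 5201 and 9918 genes were detected at more than 2 reads.

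A cell that commits to division passes from G1 into S phase, in which the genome is copied, and then through G2 into mitosis. E2F transcription factors, held back by the retinoblastoma protein in G1, drive the genes that license origins, build the replication fork, supply deoxynucleotides and repair copied DNA. Genes of G2 and mitosis are switched on later, and many of them carry a CHR element in their promoters. PCNA is the sliding clamp of the DNA polymerases, MCM3 and MCM5 are subunits of the replicative helicase, RRM2 is the small subunit of ribonucleotide reductase, CLSPN (claspin) carries the replication checkpoint signal, and E2F1 is itself one of the E2F factors and an E2F target.

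Promoters are shown for 2 of the score genes, E2F1 and CLSPN, and for 2 repair genes on which the results further on turn, MSH6 and USP1. Each runs from 250 bases before to 50 bases after the start site (RefSeq, GRCh38.p14), on the gene's strand. Capitals mark E2F motifs, searched as TTTCCCGC, TTTGGCGC, TTTGCCGC or TTTCGCGC on either strand. They are E2F1 (chr20:33686336-33686635, minus strand), CLSPN (chr1:35769929-35770228, minus strand), MSH6 (chr2:47782895-47783194, plus strand) and USP1 (chr1:62436145-62436444, plus strand).
E2F1: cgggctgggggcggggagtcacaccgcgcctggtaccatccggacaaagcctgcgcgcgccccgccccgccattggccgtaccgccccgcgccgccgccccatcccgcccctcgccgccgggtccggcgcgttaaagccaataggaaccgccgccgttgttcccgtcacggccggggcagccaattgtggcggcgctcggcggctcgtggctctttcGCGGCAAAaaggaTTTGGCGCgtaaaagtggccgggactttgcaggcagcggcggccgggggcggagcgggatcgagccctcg
CLSPN: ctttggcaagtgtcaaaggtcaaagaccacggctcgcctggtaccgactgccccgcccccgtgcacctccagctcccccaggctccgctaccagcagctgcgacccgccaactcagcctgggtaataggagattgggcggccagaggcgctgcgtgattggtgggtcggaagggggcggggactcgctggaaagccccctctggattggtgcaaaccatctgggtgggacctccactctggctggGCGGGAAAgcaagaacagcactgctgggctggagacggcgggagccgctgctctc
MSH6: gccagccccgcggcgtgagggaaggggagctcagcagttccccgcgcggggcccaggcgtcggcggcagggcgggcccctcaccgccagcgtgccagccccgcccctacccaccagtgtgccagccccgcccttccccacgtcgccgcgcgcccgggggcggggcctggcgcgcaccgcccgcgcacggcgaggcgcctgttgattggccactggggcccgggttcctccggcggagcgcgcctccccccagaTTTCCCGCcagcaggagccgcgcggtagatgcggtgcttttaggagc
USP1: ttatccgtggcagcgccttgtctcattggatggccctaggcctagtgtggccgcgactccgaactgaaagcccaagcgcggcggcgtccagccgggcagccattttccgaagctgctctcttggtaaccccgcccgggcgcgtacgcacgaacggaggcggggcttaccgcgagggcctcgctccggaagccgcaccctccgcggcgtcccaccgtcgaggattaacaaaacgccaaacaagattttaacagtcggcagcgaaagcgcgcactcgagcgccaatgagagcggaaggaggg
The E2F1 window held 2 matches, beginning 33 and 20 bases before the start site, the CLSPN window held 1 beginning 5 bases before it, and the MSH6 window held 1 beginning at base 3 after it. The USP1 window held none of these letters. Of the 5 score genes with a promoter entry, 4 held a match (E2F1, CLSPN, PCNA and MCM3) and RRM2 held none, against 908 of all 27305 promoters (3.33%) and 458 of the 7589 with an entry among the genes compared (6.04%). A match is a description of the letters, not a shown binding site.

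The score spanned a narrow range in the imatinib run. It lay between 5.57 and 8.39 log2 units (median 6.97, SD 0.607, 91 cells), and between 7.225 and 8.39 (median 7.49) in the score-high cells and 5.57 and 6.754 (median 6.30) in the score-low cells. The closest cells outside the 2 sets scored 7.211 and 6.767, and 20 cells lay within 0.1 of a cut. The mean score differed by 1.32 between the sets, as compared with 2.77 in the benzene run and 2.54 in the Hoechst run.

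**Figure D1:**
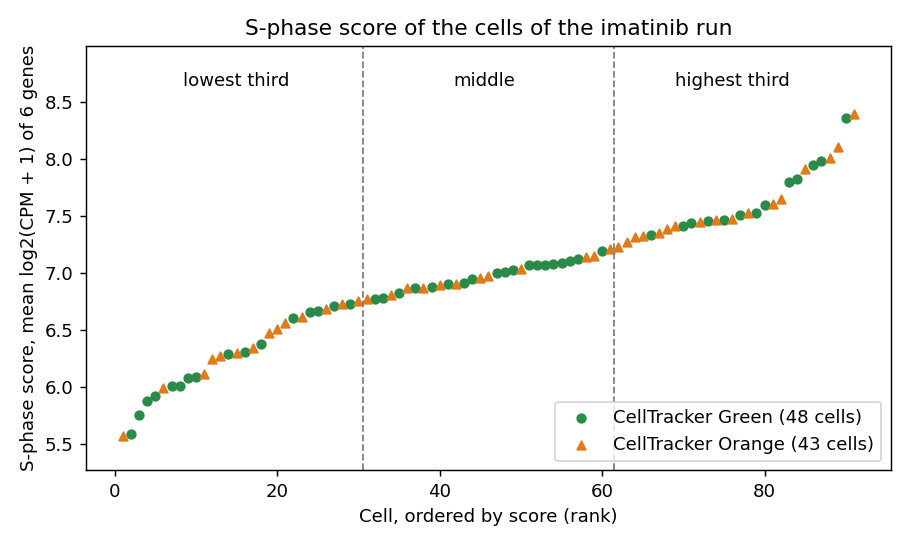
S-phase score (mean log2(CPM + 1) of the 6 score genes, y axis) of the 91 kept cells of the imatinib run in rank order (x axis), with Green cells as circles and Orange cells as triangles and dashed lines at the 2 cuts. The scores run without a gap from 5.57 to 8.39, and both stains lie along the whole range.

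The 6 score genes did not move together from cell to cell in this run. Pearson's r over the 91 cells was between -0.20 and 0.27 for the 15 pairs of score genes, with a median of 0.0067. The median over the same 15 pairs was 0.152 in the benzene run and 0.280 in the Hoechst run. The SD of the score, 0.607, was close to the 0.593 that the SDs of the 6 genes give if the genes were uncorrelated. The same pair of values was 1.29 and 0.981 in the benzene run and 1.33 and 0.905 in the Hoechst run. These correlations are descriptions over cells that share a run and their library preparation.

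E2F1 was the score gene that differed most between the sets of cells. Its CPM was between 0 and 305.7 (median 8.11) in the score-high cells and between 0 and 4.06 (median 0) in the score-low cells. It was detected at more than 2 reads in 20 of 30 score-high and 2 of 30 score-low cells, so the sets overlapped only at its lowest levels. Its mean log2 level differed by 3.18 (pooled SD 1.89), which is 40.1% of the difference in score. In summed reads it had 1514 in the score-high and 9 in the score-low cells, or 41.2 CPM (exact 95% Poisson interval 39.2 to 43.4) against 0.242 CPM (0.111 to 0.460). Such intervals cover counting error only, since the reads carry no molecular identifiers. E2F1 is part of the score that chose the sets, so a difference was built in and the intervals are no evidence for it. Among the score genes E2F1 also had the largest SD over the kept cells (2.22, with the others between 0.737 and 1.90). Its rank as the most different gene was not separated from that spread.

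The other score genes were found in nearly all cells of both sets. MCM5 was between 35.1 and 1726 CPM (median 426.8) in the score-high cells and between 0 and 822.3 CPM (median 167.3) in the score-low cells, and made up 21.04% of the score difference. RRM2 was between 88.6 and 654 CPM (median 251.6) against 0 and 276.6 CPM (median 130.1), and CLSPN between 128.8 and 767.5 CPM (median 346.8) against 46.8 and 387.7 CPM (median 177.4). PCNA and MCM3 contributed least, 6.73% and 4.24%, with median CPM of 273.1 against 186.9 for PCNA and 890 against 716.9 for MCM3. The ranges of all 6 genes overlapped between the sets. When E2F1 was left out of the score, 17 of the 30 score-high cells remained among the 30 highest and 3 were among the 30 lowest, whereas leaving out any other single gene kept between 25 and 29 of them.

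**Figure D2:**
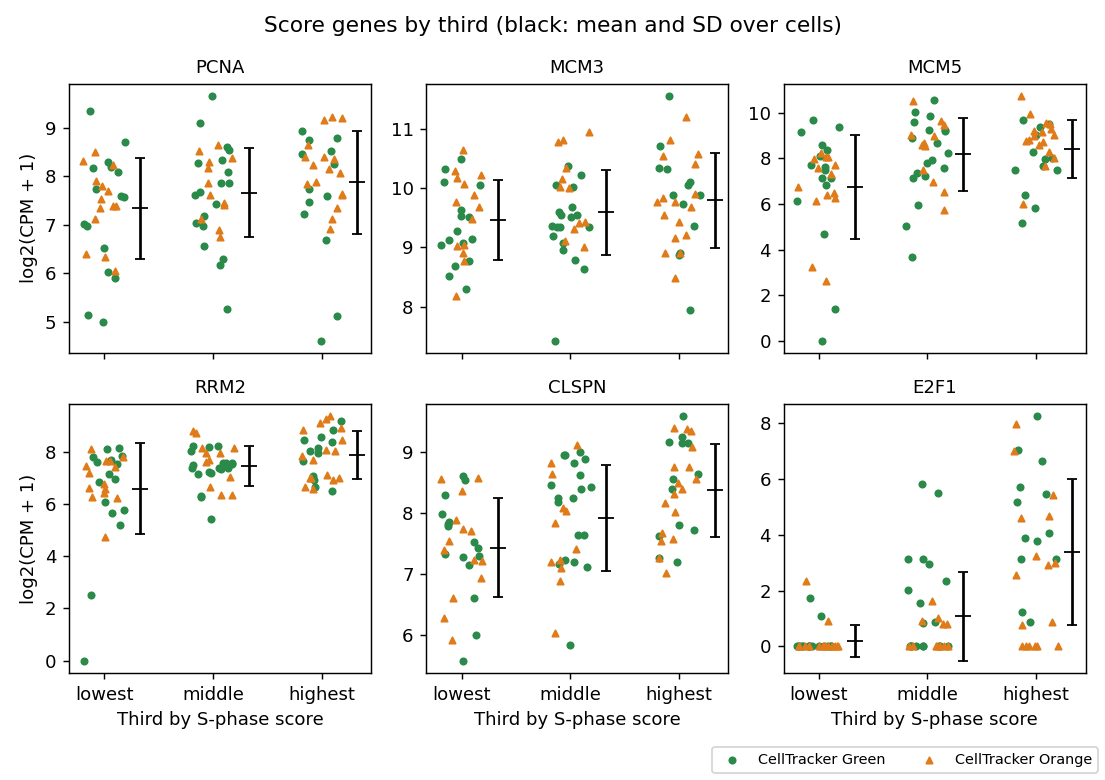
Levels of the 6 score genes (log2(CPM + 1), y axis) in the score-low, middle and score-high cells (x axis), 1 point a cell, with the mean and SD over cells in black. E2F1 was mostly at 0 in the score-low cells and spread up to 305.7 CPM in the score-high cells, and the other 5 genes overlapped widely.

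The name S-phase-high was checked against genes outside the score. Over 102 other genes of DNA replication in 6 lists (licensing, fork proteins, nucleotide synthesis, G1/S regulators, repair and chromatin assembly), the mean level per cell was 5.77 in the score-high and 5.54 in the score-low cells, a difference of 0.22 against an SD of 0.45. Of the 30 score-high cells, 14 were also among the 30 highest by these 102 genes, and 9 were among the 30 lowest. Of the 30 score-low cells, 13 were among the 30 lowest and 3 among the 30 highest. The score and the mean of the 102 genes had r = 0.188 over the 91 cells, against 0.624 in the benzene run and 0.698 in the Hoechst run, where 0 of 20 and 3 of 25 score-high cells were among the lowest by these genes. The cells are therefore called score-high and score-low here, and not S-phase cells.

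**Figure D3:**
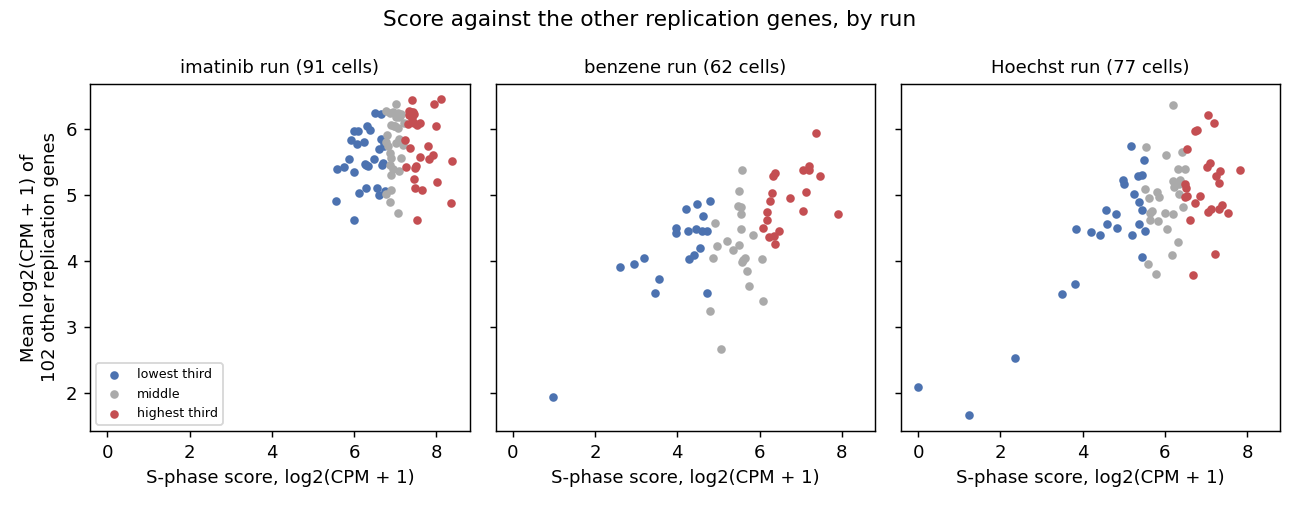
S-phase score (x axis) against the mean log2(CPM + 1) of the 102 other replication genes (y axis), 1 point a cell, in the imatinib, benzene and Hoechst runs, coloured by score set. In the imatinib run the sets separate along the score but overlap along the other genes, with r = 0.188 as compared with 0.624 and 0.698.

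The mean of the 102 genes moved with the number of genes detected per cell (r = 0.802) and with the ERCC share of all counts (r = -0.79), while the score did not (r = 0.041 and -0.039). In the benzene and Hoechst runs the score moved weakly with genes detected (r = 0.266 and 0.225). Kept Hoechst libraries went down to 50358 reads on genes and 2871 genes detected. By its stains that run is Experiment 1 of the paper, which reports another lot of K562 and sequenced dead cells for it. How far such differences enter the comparisons between runs was not tested. In the imatinib run, genes detected had a median of 7955 in the score-high cells, 8138 in the middle and 7565 in the score-low cells. The median ERCC share was 10.0% in the score-high cells (5.10% to 18.3%), 7.04% in the middle and 8.58% in the score-low cells (5.13% to 30.0%). The part of these measures in the results below was not tested. Comparisons within strata of genes detected are given for some lists. They rank the cells anew, do not hold the ERCC share fixed and do not separate fresh from fixed cells.

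Among 10490 genes detected at more than 2 reads in at least 20% of the kept cells, almost none separated the 2 sets. A size rule asked for a difference in mean log2(CPM + 1) of at least 1 that also exceeded the pooled SD over cells. It passed 1 gene that was higher (0.00953%) and 2 that were lower (0.0191%) in the score-high cells. The score genes were left out of these counts, which come from the very cells that the score chose and are given as a description. A difference of 1 or more was held by 622 genes, the median pooled SD over genes was 2.02, and the median difference was -0.01 with 49.1% of genes above 0. The same split passed 53 higher (0.597%) and 7 lower genes (0.0789%) of 8876 in the benzene run, and 6 higher (0.0576%) and 1 lower (0.0096%) of 10418 in the Hoechst run.

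SLC6A6, the taurine transporter (ENSG00000131389, GRCh37 chr3:14444076-14530857), was lower in the score-high cells. Its CPM was between 0 and 105.3 (median 2.57) in the score-high cells and between 0.764 and 425.3 (median 44.5) in the score-low cells, a difference of -2.35 (pooled SD 2.22), and it was detected in 16 and 27 of 30 cells. MON2, a protein of endosome and Golgi traffic (ENSG00000061987, GRCh37 chr12:62860597-62994256), lay between 0 and 115.2 CPM (median 2.90) against 0.592 and 337.3 CPM (median 15.3), a difference of -2.20 (pooled SD 2.15). For both genes the ranges overlapped, and the difference was negative among Green cells ranked alone (-2.96 and -1.72) and Orange cells ranked alone (-2.10 and -2.77). In the benzene run the same differences were 0.95 (pooled SD 3.48) and 1.44 (1.77), and in the Hoechst run -0.99 (2.36) and -0.46 (2.81). The higher gene was the antisense RNA MZF1-AS1, at up to 71.4 CPM (median 1.97) against up to 11.8 CPM (median 0), detected in 15 and 3 of 30 cells. Its difference was 1.64 among Green and 0.80 among Orange cells ranked alone. In the benzene and Hoechst runs it was -0.52 and -0.37, with the gene below the detection limit in both. Whether the counting used strand was not given in the sources used here, so its reads cannot be told from those of the gene opposite.

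A looser rule, a difference of at least 0.5 pooled SD with no minimum size, was added after the data were seen so that small shifts within gene groups could be counted. It passed 281 genes in the higher direction (2.68%) and 257 in the lower direction (2.45%), a near-even split. Of the 281, 237 were compared in the benzene run and 65% were above 0 there, as were 65.3% of 259 in the Hoechst run. For the 257 the shares were 55.6% of 216 and 55.9% of 238, and for all genes they were 60.4% and 60.7%. The E2F motif was in 15 of 210 promoters (7.14%) of the first set and 14 of 193 (7.25%) of the second.

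Repair and checkpoint genes were the replication group that stood highest in the score-high cells. Of 20 genes compared, 18 had a positive difference, with a median of 0.48 against -0.01 over all genes, and 4 passed the looser rule upward and none downward. The shares over all genes were 49.1% above 0, 2.68% past that rule upward and 2.45% downward. The mean of the 20 genes per cell was between 4.93 and 6.56 (mean 5.74) in the score-high cells and between 4.19 and 6.01 (mean 5.24) in the score-low cells, with 5.46 in the middle. This difference, 0.50, exceeded the SD over cells, 0.42, and of the 18 gene lists plotted it was the only list for which that held. None of the 20 genes passed the size rule.

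BRCA1, of homologous recombination, lay between 6 and 533.7 CPM (median 192.7) in the score-high cells and between 1.15 and 414.3 CPM (median 84.2) in the score-low cells, a difference in log2 level of 1.23 (pooled SD 1.57). USP1, which removes ubiquitin from FANCD2 and PCNA, lay between 25.6 and 230.4 CPM (median 87.6) against 6.75 and 229.8 CPM (median 47.5), a difference of 0.87 (SD 0.97). MSH6, a subunit of the mismatch sensor, lay between 75.9 and 795.1 CPM (median 265.6) against 20.4 and 1099 CPM (median 179), a difference of 0.96 (SD 1.23). For all 3 genes the lowest score-high cell lay above the lowest score-low cell, and the ranges overlapped over most of their width. In the benzene run the differences were -0.0086 (SD 2.41) for BRCA1, 0.86 (SD 1.66) for USP1 and 1.72 (SD 2.39) for MSH6, and in the Hoechst run 1.22 (SD 2.41), 1.22 (SD 1.89) and 0.52 (SD 2.34). ATAD5, which unloads PCNA from DNA, was the other gene past the looser rule, with medians of 91.7 and 51.7 CPM.

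**Figure D4:**
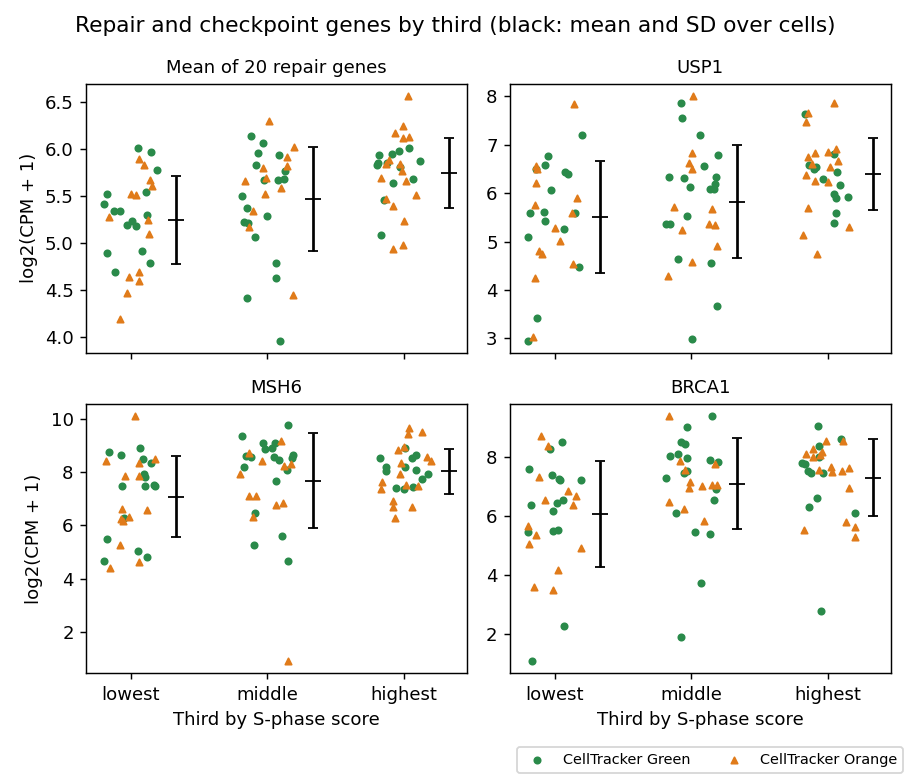
Mean of the 20 repair and checkpoint genes per cell and levels of USP1, MSH6 and BRCA1 (log2(CPM + 1), y axes) in the score-low, middle and score-high cells (x axis), 1 point a cell, with the mean and SD over cells in black. The list mean is 5.24, 5.46 and 5.74 from score-low to score-high cells, and the 3 sets overlap.

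FANCD2, which is ubiquitinated in the Fanconi anaemia pathway, had a negative difference, with medians of 427.6 and 630.2 CPM (-0.31, SD 1.09). The list mean also moved with genes detected (r = 0.465) and with ERCC share (r = -0.38). The cells were also divided into 3 strata by genes detected and ranked anew within each, and between the 10 highest and 10 lowest scores of a stratum the list mean differed by 0.56 (SD 0.45), 0.36 (SD 0.33) and 0.54 (SD 0.39). Among Green cells ranked alone (16 against 16) the median difference over the 20 genes was 0.29 with 16 above 0, and among Orange cells ranked alone (14 against 14) it was 0.58 with 18 above 0. The list mean differed by 0.86 (SD 0.88) in the benzene run and 0.81 (SD 1.08) in the Hoechst run. Of 15 promoters with an entry, 5 held an E2F motif (33.3%).

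Genes of origin licensing and of the helicase came next. Of 19 genes, 14 had a positive difference, with a median of 0.33, and the mean per cell differed by 0.35 (SD 0.60). MCM6, a helicase subunit, lay between 48.2 and 766.2 CPM (median 177.5) in the score-high cells and between 1.38 and 868.7 CPM (median 105.7) in the score-low cells, a difference of 0.97 (SD 1.38). MCM7, another subunit, had medians of 2469 and 1841 CPM (0.51, SD 0.75). GMNN (geminin), which blocks relicensing, had medians of 148.2 and 107.3 CPM (0.67, SD 1.10). These 3 of the 19 genes were the ones past the looser rule, all upward, against 2.68% of all genes. The licensing factors CDC6 and CDT1 differed by -0.05 (SD 1.80) and 0.07 (SD 2.20), GINS1, a subunit that joins the helicase, by -0.13 (SD 2.21), and DBF4, the activator of the CDC7 kinase, by -0.07 (SD 1.18), all far below the spread between cells. A match to the E2F motif was found in 8 of 17 promoters (47.1%).

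Genes of the fork itself were split. Of 23 polymerase and fork genes 14 had a positive difference (median 0.20), yet the mean per cell differed by only 0.03 (SD 0.73). RFC2, of the clamp loader, had medians of 211.1 and 123.4 CPM (1.13, SD 1.90), and RPA2, of the single-strand binding complex, had 271 and 451.2 CPM (-0.97, SD 1.31). In the benzene and Hoechst runs RPA2 differed by 0.17 and 1.16. Of 14 genes of nucleotide synthesis 7 were above 0 (median 0.03), and RRM1, the large subunit of the enzyme whose small subunit RRM2 is in the score, was lower in the score-high cells, with medians of 187 and 316.7 CPM (-0.76, SD 1.32). TYMS, thymidylate synthase, had medians of 60.1 and 45.3 CPM (0.57, SD 1.203).

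Among 15 regulators of the G1 to S step, 9 had a positive difference (median 0.26, mean per cell 0.19, SD 0.73) and none passed the looser rule in either direction. E2F8, a repressor of the family, had medians of 13.5 and 4.51 CPM (0.99, SD 2.47), and SKP2, which targets CDKN1B for degradation, 50.8 and 80.7 CPM (-0.49, SD 1.56). Of 11 genes of chromatin assembly 8 were above 0 (median 0.24), with DNMT1, the maintenance DNA methyltransferase, at 542.7 and 406 CPM (0.47, SD 0.90). Of 12 replication-dependent histone genes 9 were above 0 (median 0.27), and H2AC6 had 91.4 and 77.9 CPM (0.73, SD 1.63). Over the 102 genes of the 6 lists without the histones, 70 were above 0, 9 passed the looser rule upward and 2 downward, and none passed the size rule. Over all genes 49.1% were above 0, and 2.68% passed the looser rule upward and 2.45% downward, so the 2 downward are near that share.

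Genes of G2 and mitosis lay mostly on the lower side. Of 47 genes 35 had a negative difference, with a median of -0.23, and 5 passed the looser rule downward against 1 upward. Over all genes 49.1% were above 0, and 2.45% passed that rule downward and 2.68% upward, so the 1 upward is near that share. The mean per cell was 5.44 in the score-high and 5.71 in the score-low cells, a difference of -0.26 that was smaller than the SD over cells, 0.77. Of the 30 score-high cells 6 were among the 30 highest by these genes and 13 among the 30 lowest, while of the score-low cells 14 were among the highest and 7 among the lowest.

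CCNB1, cyclin B1, lay between 11.2 and 854.5 CPM (median 237.4) in the score-high cells and between 103.8 and 1187 CPM (median 365.4) in the score-low cells, a difference of -0.75 (SD 1.24). AURKB, the kinase of the chromosomal passenger complex, had medians of 24.7 and 75.5 CPM (-1.70, SD 2.60), and CKAP2L, a spindle protein, 1.65 and 17.4 CPM (-1.66, SD 2.34). TPX2, which activates Aurora A on the spindle, had 224 and 315.2 CPM (-0.68, SD 1.13). GTSE1, a microtubule-associated protein of G2 and mitosis, went the other way, with 16.3 and 5.11 CPM (1.26, SD 2.43). In all of these the ranges overlapped, and AURKB and CKAP2L were at 0 in some score-high cells, as CKAP2L also was in some score-low cells.

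This shift was not held in every subset. Among Orange cells ranked alone the median over the 47 genes was 0.07 with 25 above 0, and among Green cells ranked alone it was -0.25 with 15 above 0. Within the strata of genes detected, again ranked anew, the difference in mean was 0.26 (SD 0.53) in the cells with fewest genes, -0.20 (SD 0.73) in the next and -0.61 (SD 0.64) in those with most. It was 0.10 (SD 1.13) in the benzene run and 0.58 (SD 1.25) in the Hoechst run. Of 41 promoters of these genes 33 (80.5%) held a CHR motif (TTTGAA or TTTAAA, either strand), against 24.3% of all promoters, and 3 (7.32%) held an E2F motif.

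**Figure D5:**
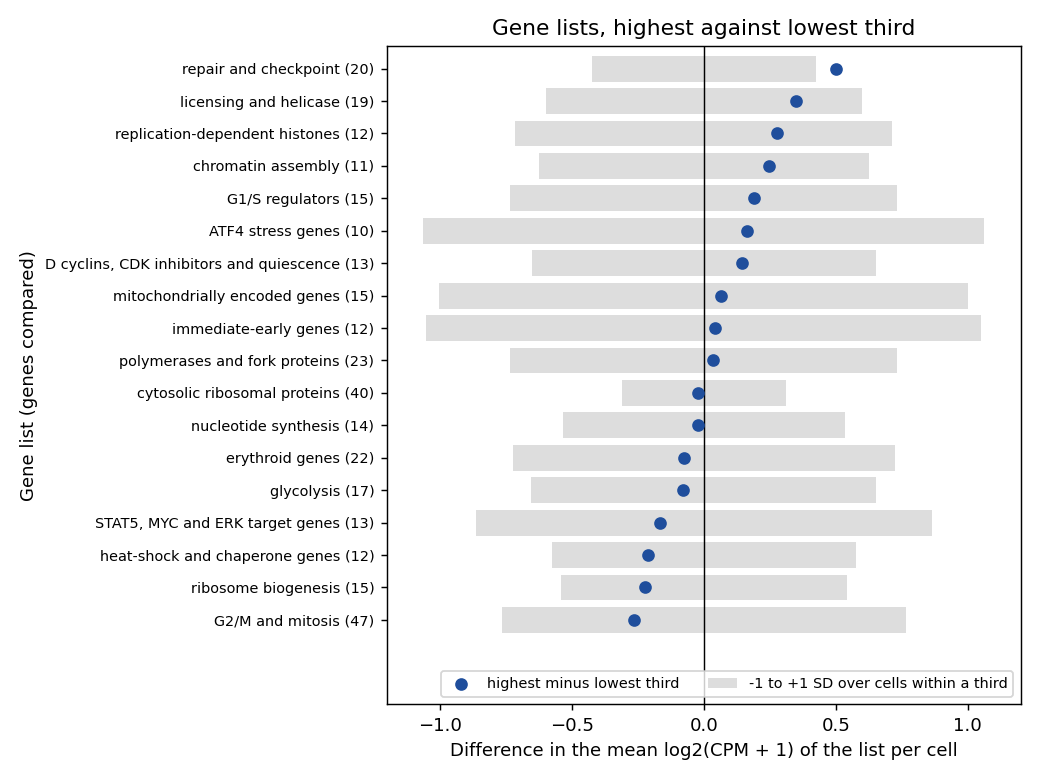
Difference between score-high and score-low cells in the mean log2(CPM + 1) of a gene list per cell (points, x axis), for 18 lists with the number of genes compared (y axis). Grey bars run from 1 SD below to 1 SD above 0, where the SD is over cells within the sets, and the repair and checkpoint list (0.50 against an SD of 0.42) alone lies outside its bar.

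The remaining lists differed by less than the SD over cells. The D cyclins, CDK inhibitors and quiescence genes had 9 of 13 above 0 (median 0.19). Ribosome biogenesis and heat-shock genes lay on the lower side as the G2 and mitosis genes did, with a difference in mean per cell of -0.22 (SD 0.54; 12 of 15 genes below 0) and -0.21 (SD 0.58; 9 of 12 below 0). The median was -0.12 for the 15 genes of ribosome biogenesis, -0.03 for 40 cytosolic ribosomal proteins, 0.12 for 15 mitochondrially encoded genes, -0.06 for 17 glycolysis genes and -0.04 for 22 erythroid genes. It was 0.13 for 12 immediate-early genes, -0.21 for 13 STAT5, MYC and ERK target genes, which include transcripts downstream of BCR-ABL1, 0.25 for 10 ATF4 stress genes and -0.13 for 12 heat-shock and chaperone genes. Some of these pooled values join opposite ones. The mitochondrially encoded genes had a median of 0.47 with 15 of 15 above 0 among Green cells ranked alone and of -0.33 with 0 of 15 among Orange cells ranked alone, and the STAT5, MYC and ERK targets had -0.45 (4 of 13 above 0) and 0.30 (10 of 13). Of single erythroid genes, NFE2, a transcription factor of globin genes, had medians of 217.4 and 403.3 CPM (-1.14, SD 1.71), and EPOR, the erythropoietin receptor, 8.22 and 0 CPM (1.39, SD 2.17).

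The markers of K562 were present in both sets. PRAME, a tumour antigen, lay between 1537 and 5435 CPM (median 3816) in the score-high cells and between 1856 and 4655 CPM (median 2879) in the score-low cells, and PRAME, GATA1 and TFRC had reads in all 60 cells. Of 10 markers of other cell types, MS4A1 and CD79A had no reads and CD3E had 4 reads in 1 score-low cell. CD3D had reads in 7 score-high and 9 score-low cells, and CD14, COL1A1, COL1A2 and ALB each had reads in at most 4 cells of a set. EPCAM had reads in 29 of 30 cells of each set, with medians of 23.7 and 27.8 CPM, and its part in the results was not tested. The summed level of the 10 genes was between 0.899 and 131.6 CPM (median 28.6) in the score-high cells and between 0 and 257.3 CPM (median 45.6) in the score-low cells.

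Both stains were found in both sets. Orange cells, which had been given imatinib, were 17 of 30 score-high cells (56.7%, exact 95% Clopper-Pearson interval 37.4 to 74.5), 12 of 31 middle cells (38.7%, 21.9 to 57.8) and 14 of 30 score-low cells (46.7%, 28.3 to 65.7). They were 43 of the 91 kept cells (47.3%, 36.7 to 58), which include these sets. The score had a mean of 6.92 (SD 0.62, 48 cells) in Green and 7.01 (SD 0.59, 43 cells) in Orange cells, and the medians were 6.972 and 6.971. These intervals cover counting error only, and a difference in the share of imatinib-treated cells could not be tested, since the labels separate no cultures within a stain.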

How the data were processed

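Per the paper's methods, the authors trimmed reads with skewer, aligned them with HISAT2 (reference GRCh37 plus ERCC), marked duplicates with Picard 1.92 and counted reads per Ensembl gene with featureCounts (Subread 1.5.0). Whether marked duplicates were counted is not given in the sources used here. The authors deposited raw counts per gene, and their CPM table was not used. Of the columns, 4 matched no title and were not used, and 4 benzene titles had no column. Samples were grouped by the stain and drug in their labels.

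ERCC rows were left out and CPM computed over genes with Python 3.11.15 and pandas 2.3.3. Levels are log2(CPM + 1). Gene names and coordinates came from GENCODE v44lift37 (GRCh37), in which 55665 of 63677 identifiers were found, with 99.0% of reads. UHRF1, H2AC16, H3C2 and H3C7 were not matched by symbol. Promoters came from the RefSeq table (GRCh38.p14), where MCM5, SLC6A6 and MON2 had no entry. Named genes were the score genes, protein-coding genes past the size rule in the same direction in both stains (at most 10 each way), and the 2 members with the largest and the 2 with the smallest difference over SD in each list. MZF1-AS1, MSH6, ATAD5, GMNN, CDC6, CDT1, CCNB1 and TPX2 were named after their values were seen. The values of 2 list members are not reported here. The members and lists were chosen with earlier results of these data known. The alternatives covered scaling (TMM factors, edgeR 4.0.16), pseudocounts, thinning, filters, strata, single stains and other scores.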

Additional observations from a re-analysis of the deposited data

How the results depend on the processing

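Under 21 other settings, 123 values were recomputed where the setting applied, giving 2234 values, of which 39 moved by more than the spread between cells, or for counts by more than 1.5 times, and 1, E2F1, turned from past the size rule to the other sign. The sign of a list median was kept in 10 of 19 settings for nucleotide synthesis, 13 for polymerase and fork genes and 17 for G2/M. The repair and checkpoint median stayed positive, between 0.25 and 0.81, and the licensing median between 0.03 and 0.77. The values 0.81 and 0.77 came under the score from the 102 other replication genes. That score holds the genes of these 2 lists, so higher values there were built in. Under the other settings the highest were 0.58 and 0.44. The G2/M median lay between -0.44 and 0.52 and was positive in Orange cells alone (0.07) and under the score from the 102 other replication genes (0.52). The number of genes past the size rule was unstable at these low counts. The higher genes, 1 as reported, were 2 with TMM factors, 0 with a pseudocount of 10 for levels, 2 with it in the score, 0 after thinning to 300000 reads, 11 with the 4-part split, 0 with sets drawn within each stain, 26 in Green and 69 in Orange cells alone, 3 with a standardised score, 4 without PCNA, 0 without MCM3, 3 without MCM5, 4 without RRM2, 4 without CLSPN and 0 with a detection limit of 50% of cells. The lower genes, 2 as reported, were 1 with TMM factors, 0 with a pseudocount of 10 for levels, 0 after thinning, 7 with the 4-part split, 30 in Green and 37 in Orange cells alone, 1 without MCM5, 5 without RRM2, 0 without CLSPN, 1 without E2F1 and 0 with all 96 libraries. Summed reads, which have no SD over cells and so only the log2 limit, gave 699 and 480. The score from the 102 other genes, added after the data were seen, gave 414 higher and 10 lower genes and medians of 1.27 for polymerase and fork genes, 0.93 for nucleotide synthesis, 1.23 for G1/S regulators and 0.60 for glycolysis, with a median over all genes of 0.64. The fork, nucleotide and G1/S genes are part of that score, so their higher medians there were built in. Under the score without E2F1, E2F1 itself differed by -0.44. At 300000 reads, with the score also taken from the thinned counts, the genes detected had medians of 6235 and 5969. The cause of these shifts was not tested. No paired analysis was possible because the values come from no test and the labels pair no cells. Depth limits low genes such as E2F1, for which no read in a cell does not show absence.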
